A study of Mus musculus with 12 samples.

Results

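The immunity-related GTPases (IRGs), a family of interferon-inducible proteins of the mouse, were examined in 12 subcutaneous lung tumors. The 10 members listed were Irgm1, Irgm2, Igtp, Iigp1, Ifi47, Tgtp1, Tgtp2, Gm4841, Gm4951 and Gm12250, matched by symbol, and 9 of them were found among the 34678 gene symbols measured. Gm12250 (Irgb10) was not analysed here. The family was selected on the treatment contrasts of these same tumors, whose FPKM were known from earlier results, so the levels and differences below describe these tumors and are not independent evidence of a direction. The tumors grew from LLC1-shLkb1 cells, a Lewis lung carcinoma line carrying a short hairpin RNA against Lkb1 (Stk11), under the skin of C57BL/6 mice that were 6 to 8 weeks old at the start. Treatment began 7 days after the cells were injected, and tumors were collected after 2 weeks. There were 4 arms of 3 tumors each, biological replicates by the study's methods: vehicle (control immunoglobulin), palbociclib (an inhibitor of the cell-cycle kinases CDK4 and CDK6, by mouth on the first 3 days of each 7-day cycle), anti-PD-1 antibody (which blocks an inhibitory receptor of T cells, into the peritoneum on days 1, 3 and 5), and anti-PD-1 with palbociclib, called the combination. All arms carried the same hairpin and there was no arm without it, hosts of both sexes were used in the study and the labels do not give the sex of each mouse, and all tumors come from 1 cell line.

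IRGs are GTPases that mouse cells make in quantity when interferon, above all interferon gamma, reaches them, with the transcription factor IRF1 among the activators. The effector members (Iigp1, Ifi47 and the Tgtp proteins) gather on the membrane of vacuoles that hold intracellular parasites and bacteria and break it, together with the guanylate-binding proteins (GBPs). The regulator members (Irgm1, Irgm2 and Igtp, also called Irgm3) carry methionine in place of a lysine in the nucleotide-binding loop, sit on the cell's own membranes and keep the effectors inactive there. Outside infection, a high IRG level in a tissue is a common readout of interferon gamma exposure, in leukocytes and in other cells alike.

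Promoter stretches that match the elements through which interferons act are shown first, as background. Whether they bear on the levels below was not tested. RefSeq windows on GRCm38.p6 around the annotated start were at hand for 6 of the 9 members, all on chromosome 11. They were searched for the core of the gamma-activated site (TTCNNNGAA, which reads the same on both strands) and for the core of the interferon-stimulated response element that IRF factors bind (GAAA, any 2 bases, GAAA, on both strands). In the stretches below, written 5′ to 3′ along each gene, capitals mark these cores.
Igtp: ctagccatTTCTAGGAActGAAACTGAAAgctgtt
Irgm2: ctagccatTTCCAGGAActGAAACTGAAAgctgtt
Tgtp1: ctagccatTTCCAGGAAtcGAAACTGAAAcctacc
Tgtp2: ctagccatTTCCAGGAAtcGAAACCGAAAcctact
Irgm1: tgtttcaaGAAATAGAAACCGAAActgatt
These lie at chr11:58199503-58199537 (Igtp, + strand), chr11:58214894-58214928 (Irgm2, + strand), chr11:48992308-48992342 (Tgtp1, - strand), chr11:49064267-49064301 (Tgtp2, - strand) and chr11:48871429-48871458 (Irgm1, - strand).

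In Igtp, Irgm2, Tgtp1 and Tgtp2 the same block stood upstream of the RefSeq start, with the 2 cores in the same order and 2 bases between them. Counted back from that start, the block began at base -45 in Igtp, -75 in Irgm2, -88 in Tgtp1 and -81 in Tgtp2. For Irgm2, Tgtp1 and Irgm1 the GENCODE gene begins further upstream, so their stretches lie inside the gene coordinates given below. Irgm1 held 2 overlapping matches to the second core between bases -30 and -15 and no match to the first, and the Ifi47 window held neither. Over all 32851 promoter windows, 8.3% held the first core, 3.44% the second and 0.454% both, and 15 windows (0.0457%) held both in this order within 10 bases, the 4 members among them. Tgtp1 and Tgtp2 are close copies of each other, and the printed stretches of Igtp and Irgm2 are nearly identical. The stretches of all 4 also share the bases before the first core, so these 4 are not independent occurrences. A match is a description of the letters and was not tested for binding, and the Ifi47 window says only that these letters are not in it.

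The genes lie in a few clusters. On GRCm38 (GENCODE M21) 6 members are on chromosome 11: Irgm1 (48861968 to 48871683), Tgtp1 (48985327 to 48994172), Tgtp2 (49057194 to 49064206) and Ifi47 (49076587 to 49096974) in one neighbourhood, Igtp (58199556 to 58207591) and Irgm2 (58199618 to 58222782) in another. Iigp1, Gm4841 and Gm4951 are on chromosome 18. The coding sequences of Tgtp1 and Tgtp2 were 99.7% identical over 1245 bases, those of Iigp1 and Gm4951 88.0% and those of Irgm2 and Igtp 74.6%. The other pairs were between 59.9% and 70.6% identical over the bases that aligned. Reads from Tgtp1 and Tgtp2 can hardly be told apart, and the annotated Irgm2 overlaps Igtp on the same strand, so how the counting divided reads within these pairs bears on each single value.

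Levels are FPKM, fragments scaled by gene length and library size, as the authors made them. Fragment numbers behind these levels were estimated from the smallest values of low genes and annotated lengths, and their absolute size is approximate. Over all 12 tumors about 25142 fragments fell on Iigp1, 17647 on Irgm1 and 709 on Gm4841, the least covered member, which had 6 in its lowest tumor. Krt8, a keratin of simple epithelia, was at 62.0 to 276 FPKM in every tumor, whereas the lung epithelial genes Nkx2-1 and Sftpc were listed at 0 in all of them and Epcam reached 1.81 at most. Krt18, another keratin of such epithelia, reached only 5.08 FPKM and was at 0 in combination replicate 2. Stk11, the hairpin's target, was at 7.90 to 11.5 FPKM with no arm to compare it with. Genes of neighbouring tissue were high in some tumors: the sum of 5 skeletal muscle markers was 154 FPKM in palbociclib replicate 3, 139 in combination replicate 2 and 48.6 in vehicle replicate 1, the highest of the vehicle arm. The sum of 5 skin markers reached 360 in palbociclib replicate 2. The sum of 5 adipose markers also moved with palbociclib, apart from combination replicate 3 at 1.29 FPKM. It was 1.24 to 4.40 FPKM with vehicle, 15.4 to 374 with palbociclib, 0.813 to 4.75 in the antibody arm and 1.29 to 920 in the combination arm. All 5 had a positive palbociclib effect (defined below), with a median of 2.83 on the log2 scale, and none was called, the lowest limma adjusted p being 0.0836. The log2 of the adipose sum followed the family level over the 12 tumors with r = 0.650 (rho = 0.650), and with r = 0.608 without the 2 tumors farthest from the family's median. The 5 muscle and the 5 skin markers also had positive effects, with medians of 1.80 and 1.71 and none called. Outside palbociclib replicate 2 the skin sum was at most 0.910 FPKM. The muscle sum was only 0.540 FPKM in palbociclib replicate 1 and 0.0421 in combination replicate 1. The log2 of the muscle sum followed the family level with r = 0.313 (rho = 0.399) and that of the skin sum with r = 0.495 (rho = 0.755). The part of these tissues in the IRG levels was not tested.

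All 9 members stood higher with palbociclib than with vehicle, by 2.57 times (Irgm1) to 5.83 times (Gm4841) in mean FPKM. In each of the 9, the 3 palbociclib tumors lay above the 3 vehicle tumors, an arrangement that 12.9% of the 15350 genes tested showed. In 7 of the 9, the 3 combination tumors also lay above the 3 anti-PD-1 tumors (11.4% of genes). Both held for those 7 (1.95% of genes), the exceptions being Ifi47 and Tgtp2. With anti-PD-1 alone the range overlapped that of the vehicle tumors for every member, and none had all 3 antibody tumors above (4.25% of genes). These counts describe the contrast for which the family was picked and support nothing further.

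**Figure D1:**
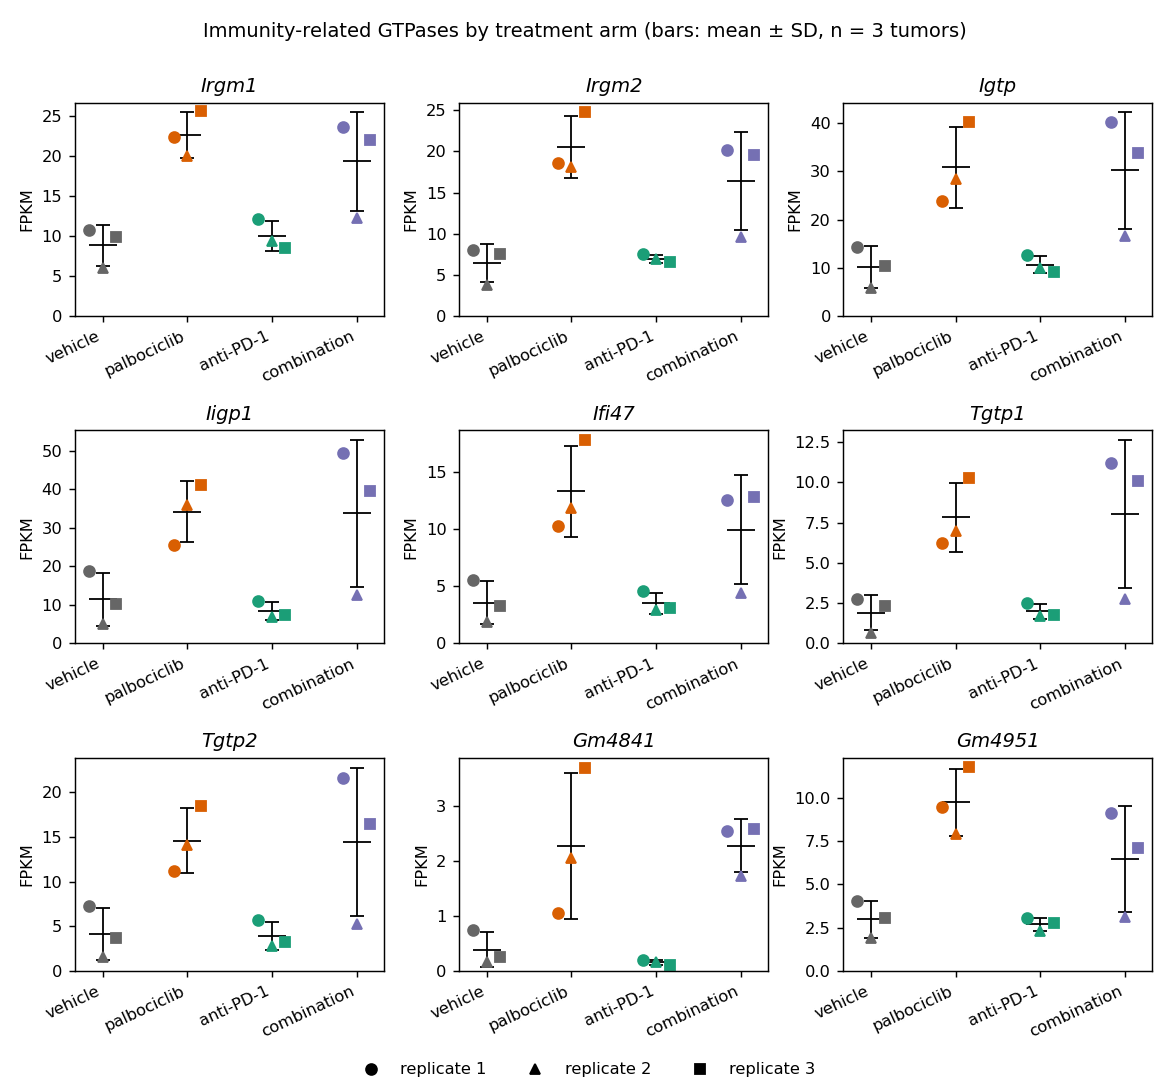
FPKM of the 9 family members (y axes, linear from 0) in each tumor of the 4 arms (x axes), with the mean and SD of 3 tumors as bars. The palbociclib tumors sit above the vehicle tumors in every panel, and combination replicate 2 (triangle) is the lowest combination tumor in every panel, at 12.3 FPKM for Irgm1 against 22.1 and 23.7 in the other 2.

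Among the regulators, Irgm1 was at 10.7, 5.96 and 9.85 FPKM in the 3 vehicle tumors. It was at 22.4, 20.0 and 25.7 FPKM with palbociclib, 12.2, 9.35 and 8.51 under anti-PD-1 and 23.7, 12.3 and 22.1 with the combination. Every palbociclib-treated tumor, with or without the antibody, lay above every other tumor, although combination replicate 2 at 12.3 barely exceeded anti-PD-1 replicate 1 at 12.2. Irgm2 was at 7.97, 3.78 and 7.49 FPKM with vehicle, 18.6, 18.1 and 24.9 with palbociclib, 7.47, 6.90 and 6.51 under anti-PD-1 and 20.2, 9.56 and 19.6 with the combination. Its 3 anti-PD-1 values (6.96 ± 0.483, SD, n = 3) fell inside the vehicle range. Igtp was at 14.3, 5.75 and 10.4 FPKM with vehicle, 23.9, 28.4 and 40.2 with palbociclib, 12.6, 10.01 and 9.17 under anti-PD-1 and 40.2, 16.7 and 33.9 with the combination. The 6 tumors given palbociclib were again the 6 highest, and this held for 5 members in all, Tgtp1 and Gm4841 being the others (1.02% of all genes tested).

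Among the effectors, Iigp1, which destroys parasite vacuoles, was the most abundant member by mean FPKM over the 12 tumors (22.0), ahead of Igtp (20.5), Irgm1 (15.2) and Irgm2 (12.6). Iigp1 was at 18.95, 5.17 and 10.2 FPKM with vehicle, 25.5, 36.0 and 41.2 with palbociclib, 11.1, 6.91 and 7.28 under anti-PD-1 and 49.4, 12.5 and 39.5 with the combination. Among the 6 tumors given palbociclib, its highest and its lowest were both in the combination arm, and combination replicate 2 fell below vehicle replicate 1. Ifi47 (Irgd) averaged 3.56 ± 1.87 FPKM with vehicle, 13.3 ± 3.99 with palbociclib, 3.54 ± 0.923 under anti-PD-1 and 9.95 ± 4.78 with the combination (SD, n = 3 each). Tgtp1 averaged 1.92 ± 1.11, 7.83 ± 2.13, 1.99 ± 0.462 and 8.04 ± 4.58 FPKM in the same order, and its near copy Tgtp2 4.14 ± 2.88, 14.6 ± 3.64, 3.89 ± 1.57 and 14.4 ± 8.31 (SD, n = 3 each). For Ifi47 and Tgtp2, combination replicate 2 (4.43 and 5.30 FPKM) lay below anti-PD-1 replicate 1 (4.60 and 5.68).

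Gm4841 and Gm4951 stand beside Iigp1 on chromosome 18 and resemble it in sequence, and their roles are less known. Gm4841 was the lowest member and the one with the largest ratio. It was at 0.751, 0.160 and 0.261 FPKM with vehicle, 1.06, 2.06 and 3.70 with palbociclib, 0.202, 0.173 and 0.114 under anti-PD-1 and 2.55, 1.72 and 2.59 with the combination. Its lowest tumor given palbociclib, 1.06, lay above its highest tumor without it, 0.751. Gm4951, from 3.00 ± 1.07 FPKM with vehicle, averaged 9.73 ± 1.96 with palbociclib, 2.70 ± 0.378 under anti-PD-1 and 6.45 ± 3.07 with the combination (SD, n = 3 each).

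Combination replicate 2 was low for each member, but not equally. Relative to the mean of the other 2 combination tumors it held 0.261 of the Tgtp1 level, 0.279 of Tgtp2, 0.281 of Iigp1, 0.348 of Ifi47, 0.382 of Gm4951, 0.450 of Igtp, 0.481 of Irgm2, 0.538 of Irgm1 and 0.671 of Gm4841. The ratios of the 4 effectors were lower than those of the 3 regulators in this tumor. The same tumor had the lowest Ptprc level of all 12, 0.841 FPKM against 2.89 and 3.21 in the other 2 combination tumors. The summed level of 4 pan-leukocyte markers, Ptprc among them, was not the lowest there. That sum was 41.8 FPKM in combination replicate 2, 77.0 and 88.5 in the other 2 combination tumors and 37.8 in anti-PD-1 replicate 2. Vehicle replicate 2 was likewise the lowest vehicle tumor for each member, at 0.2603 (Tgtp1) to 0.580 (Irgm1) of the mean of the other 2. There too the ratios of the 4 effectors (0.2603 to 0.420) were lower than those of the 3 regulators (0.465 to 0.580).

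Differences were tested with limma on log2(FPKM + 0.1) on the 15350 genes whose mean FPKM reached 0.1, fitting a mean for each arm, with p-values adjusted over the whole table by Benjamini-Hochberg, and a gene was called at an adjusted p under 0.05. The pseudocount makes the differences of low genes such as Gm4841 smaller than their ratios. The palbociclib effect is the mean of 2 differences, palbociclib minus vehicle and combination minus anti-PD-1, and uses all 12 tumors. It was positive for all 9 members, with a median of 1.66 against 0.06 over all genes tested, and 4 of the 9 were called, all higher, where 0.248% of all genes were called in that direction. Over all genes 38 were called higher and 10 lower, and with quantile normalization 28 and 16. Those 4 were Gm4841, Irgm2, Irgm1 and Igtp, so that the 3 regulators were called and the effectors Iigp1, Ifi47, Tgtp1 and Tgtp2 were not.

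The palbociclib effect was 1.15 for Irgm1 (SE 0.19, limma adjusted p = 0.0419), 1.44 for Irgm2 (SE 0.22, limma adjusted p = 0.0399) and 1.54 for Igtp (SE 0.26, limma adjusted p = 0.0433). For Gm4841 it was 2.74 (SE 0.33, limma adjusted p = 0.0339). The 5 members not called had effects at least as large as that of Irgm1 with a wider spread: 1.41 for Gm4951 (SE 0.26, limma adjusted p = 0.0522), 1.66 for Ifi47 (SE 0.32, limma adjusted p = 0.0543), 1.95 for Tgtp1 (SE 0.39, limma adjusted p = 0.0654), 1.77 for Iigp1 (SE 0.37, limma adjusted p = 0.0736) and 1.86 for Tgtp2 (SE 0.41, limma adjusted p = 0.0752). The calls also turned on single tumors: without vehicle replicate 1, anti-PD-1 replicate 1 or combination replicate 2 all 9 members were called, without vehicle replicate 3 or palbociclib replicate 1 only Gm4841 was, and without any of the other 7 tumors none was. The direction was the same for every member in each of these fits, and the median effect stayed between 1.46 and 1.91.

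**Figure D2:**
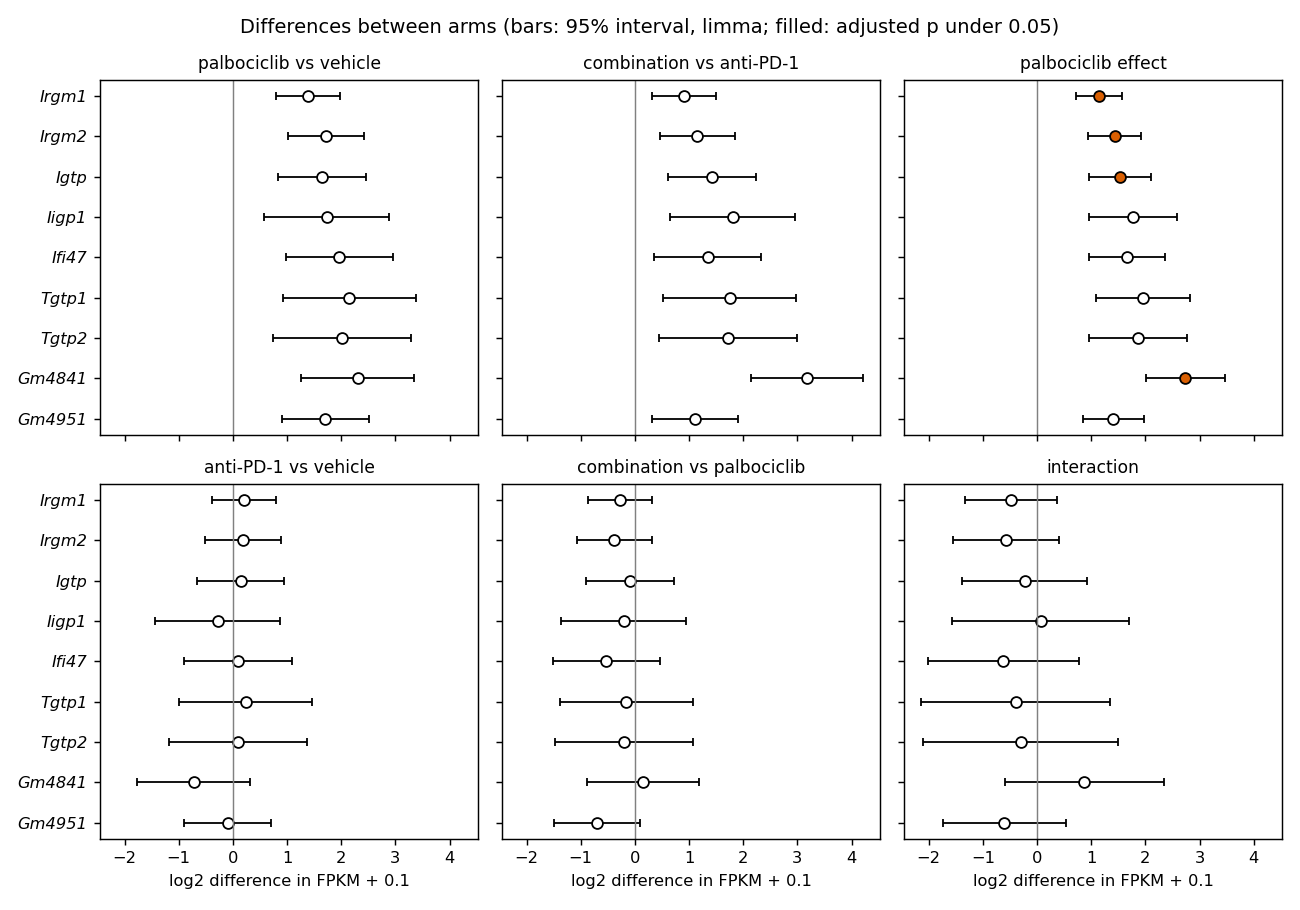
Differences in log2(FPKM + 0.1) (x axes) for the 9 members (y axes) in 6 comparisons, with 95% intervals from limma and filled points where the adjusted p was under 0.05. In the upper row every interval lies above 0 and 4 points of the palbociclib effect are filled, whereas in the lower row every interval includes 0.

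In the single comparisons no member was called. Palbociclib against vehicle gave differences from 1.39 (Irgm1) to 2.30 (Gm4841), with limma adjusted p from 0.0688 (Irgm2) to 0.242 (Iigp1), while 21 genes (0.137% of those tested) were called higher and 0.143% in either direction. All 9 members had an unadjusted p under 0.05 there, as had 2117 of the 15350 genes tested. Combination against anti-PD-1, which shares no tumor with that comparison, gave 0.91 (Irgm1) to 3.17 (Gm4841), limma adjusted p from 0.246 to 0.337. No gene was called higher there and 0.00651% of genes in either direction. An unadjusted p under 0.05 was again found for all 9 members, and for 1814 of the 15350 genes tested. Combination against vehicle gave 1.01 (Gm4951) to 2.45 (Gm4841), limma adjusted p from 0.181 to 0.226, with 0.013% of genes called in either direction. It shares the vehicle tumors with the first comparison, and 5 members had all 3 combination tumors above all 3 vehicle tumors (10.8% of genes).

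Anti-PD-1 alone against vehicle gave small differences of both signs, from -0.72 (Gm4841) to 0.24 (Tgtp1), with a median of 0.09 and limma adjusted p from 0.675 to 0.985. No gene was called by limma in this comparison, where 1289 genes had an unadjusted p under 0.05, and no member had an unadjusted p under 0.05. The 95% interval for Gm4841 ran from -1.76 to 0.31, at a depth of an estimated 6 to 33 fragments per tumor in these 2 arms. Combination against palbociclib was negative for 8 of 9 members, with a median of -0.21 and a range from -0.70 (Gm4951) to 0.15 (Gm4841), and the limma adjusted p was 1 for each, with 0.00651% of all genes called. None of the 9 had all 3 combination tumors above all 3 palbociclib tumors (4.52% of genes).

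The interaction, the palbociclib difference with the antibody minus that without it, was negative for 7 of 9 members, with a median of -0.40. It ran from -0.62 (Ifi47) to 0.87 (Gm4841), with limma adjusted p from 0.928 to 0.996 and no unadjusted p under 0.05, and limma called no gene, with 879 at an unadjusted p under 0.05. The 95% intervals were wide, reaching from -2.13 at the low end (Tgtp1) to 2.34 at the high end (Gm4841), and so do not show that palbociclib acted alike with and without the antibody. By mean FPKM the combination arm was the highest for Tgtp1 and Gm4841 and the palbociclib arm for the other 7, and these 2 arms overlapped for every member.

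The members varied together from tumor to tumor. Over the 12 tumors Pearson's r of log2(FPKM + 0.1) between 2 members ran from 0.859 (Gm4841 with Gm4951) to 0.991 (Irgm1 with Irgm2), with a median of 0.971 over the 36 pairs, and Spearman's rho from 0.867 to 0.993. Without the 2 tumors farthest from the family's median, palbociclib replicate 3 and vehicle replicate 2, the median r was 0.963. After each arm's mean was taken away the median r was still 0.939 and the lowest was 0.615, so members rose and fell together within arms as well. Tgtp1 and Tgtp2 (r = 0.985) may share reads, and all pairs share libraries and depth. The 8 lowest r were those of the 8 pairs that include Gm4841.

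Outside the family, the 5 genes whose level followed the mean z-scored level of the members most closely, among 11178 genes whose mean FPKM reached 1, were Gbp2 (r = 0.987), Psme2b (r = 0.983), Tapbpl (r = 0.982), Batf2 (r = 0.980) and Gbp5 (r = 0.979), with Spearman's rho of 0.965 to 0.972. Gbp2 and Gbp5 are GBPs, Psme2b belongs to the genes of the proteasome activator PA28, Tapbpl edits peptides on MHC class I and Batf2 is a transcription factor. Without the 2 farthest tumors r was between 0.968 and 0.993 for these 5. Ifng followed the family with r = 0.901 (rho = 0.874), Irf1 with r = 0.896 (rho = 0.825) and Socs1, a feedback inhibitor of the pathway, with r = 0.886 (rho = 0.811). For Irf8 the r was lower, 0.715 (rho = 0.762), and 0.885 without the 2 farthest tumors. Isg15 (r = 0.623, rho = 0.476) and Mx1 (r = 0.643, rho = 0.573), which respond above all to type I interferon, followed the family less closely, and without the 2 farthest tumors their r was 0.277 and 0.579. Only these 2 of the 12 type I interferon-stimulated genes listed were compared with the family in this way. These values describe 12 tumors that share the treatment contrast.

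**Figure D3:**
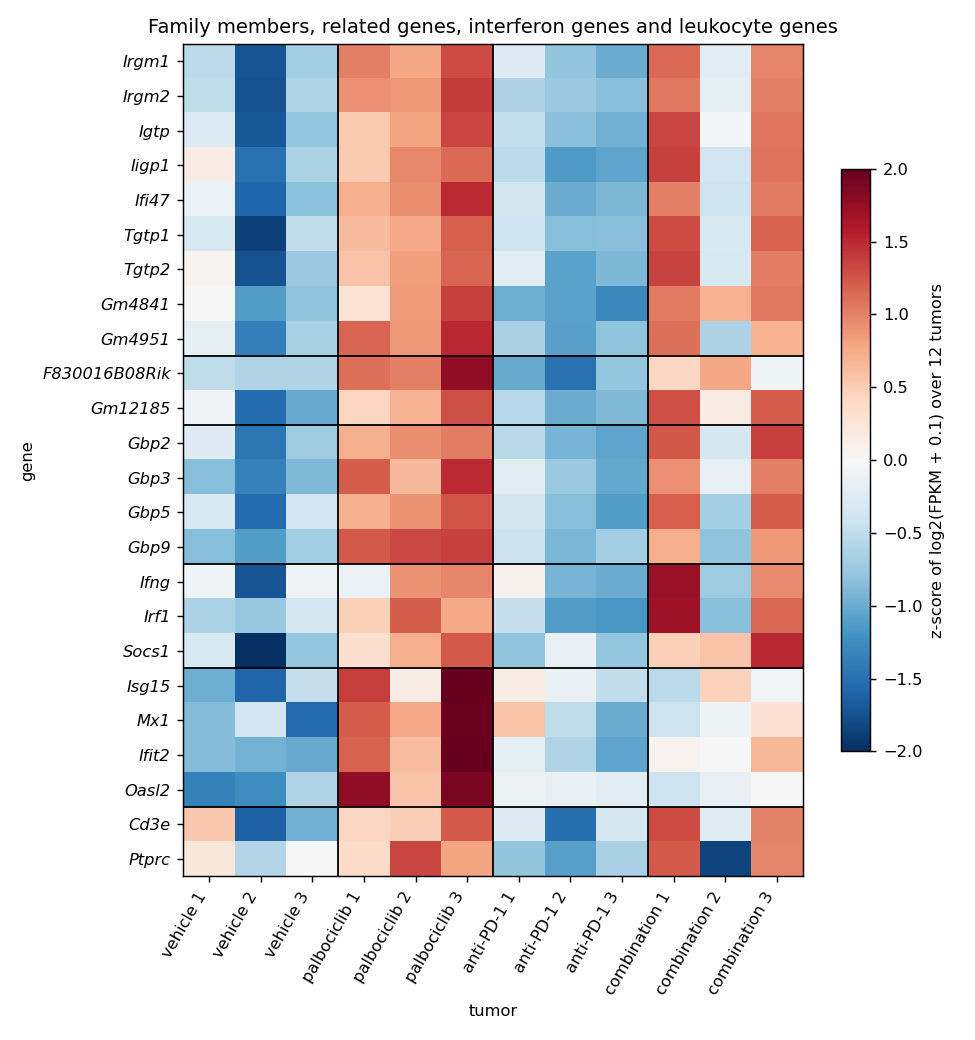
z-score of log2(FPKM + 0.1) over the 12 tumors (columns, by arm) for the 9 members and 15 other genes (rows, in blocks: other IRG-like entries, GBPs, interferon gamma pathway, type I interferon-stimulated genes, leukocyte genes). Combination replicates 1 and 3 are red for the members and GBPs and paler or blue for Isg15 and Mx1. Isg15 was at 63.2 and 82.3 FPKM and Mx1 at 2.71 and 4.18 FPKM in those 2 tumors.

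Of 7 other IRG and IRG-like entries, 5 passed the filter and 2 were called in the palbociclib effect, both higher: F830016B08Rik (1.39, SE 0.17, limma adjusted p = 0.0339) and Gm12185 (1.92, SE 0.33, limma adjusted p = 0.0434). Irgq, a distant relative that is not interferon-inducible, had an effect of 0.11 (SE 0.12, limma adjusted p = 0.606). F830016B08Rik was also called for palbociclib against vehicle, at 1.56 (SE 0.25, limma adjusted p = 0.0386), a call lost in 17 of the 22 alternatives described below. Of the 11 GBPs, the partners of the effectors on vacuoles, all 11 had a positive palbociclib effect (median 1.71) and 3 were called, Gbp2 (1.79), Gbp3 (1.46) and Gbp9 (1.03), with limma adjusted p of 0.0462, 0.0339 and 0.0399. Gbp3 was also called for palbociclib against vehicle, at 1.85 (SE 0.28, limma adjusted p = 0.0386). Gbp5 had a palbociclib effect of 1.52 (SE 0.34, limma adjusted p = 0.0804).

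Of the 14 genes of the interferon ligand, receptors and signalling, 12 had a positive palbociclib effect (median 0.30). Irf1 had an effect of 0.73 (SE 0.18, limma adjusted p = 0.0885), Socs1 0.97 (SE 0.19, limma adjusted p = 0.0543) and Irf8, a factor of myeloid cells, 0.72 (SE 0.30, limma adjusted p = 0.212). Ifng itself was near the floor, at 0 to 0.327 FPKM in the vehicle arm, 0.307 to 0.950 in the palbociclib arm, 0.0895 to 0.390 in the anti-PD-1 arm and 0.145 to 1.91 in the combination arm, and its effect was 1.55 (SE 0.57, limma adjusted p = 0.172). In the 10 genes of the autophagy conjugation machinery, on which the placement of IRGs on vacuoles depends, the median effect was -0.03, 4 of 10 were positive and none was called by limma. Of these 10, 2 had an unadjusted p under 0.05, near the share over all genes (3154 of 15350).

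For the 12 type I interferon-stimulated genes, values are set beside those of the IRGs. Palbociclib against vehicle gave a median of 1.48 for them, with Ifit2 (1.24) and Oasl2 (1.49) called, and 1.74 for the 9 members. Combination against anti-PD-1 gave a median of 0.01 for these genes and 1.42 for the members. Combination against palbociclib was negative for 12 of 12 of them with a median of -0.99, all with an unadjusted p under 0.05 and none called, and -0.21 for the members. Over all 15350 genes, 694 had an unadjusted p under 0.05 in that comparison. Isg15 was at 182, 92.5 and 274 FPKM with palbociclib and 63.2, 109 and 82.3 with the combination. Its highest combination value came from replicate 2, the tumor that was lowest for every IRG of that arm. The difference between the 2 lists was not itself tested.

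Markers of T cells, of leukocytes in general and of macrophages moved with the members. The summed level of 6 T cell markers was 1.51 to 6.27 FPKM with vehicle, 6.66 to 13.9 with palbociclib, 1.59 to 3.73 in the antibody arm and 4.02 to 13.3 in the combination arm. That of 4 pan-leukocyte markers was 42.4 to 60.8, 68.4 to 91.0, 37.8 to 63.0 and 41.8 to 88.5 FPKM in the same order, and that of 6 macrophage markers 110 to 578, 460 to 758, 127 to 441 and 334 to 767. No marker of these 3 lists was at 0 in all tumors, and none of the 16 was called in the palbociclib effect, whose median was 1.42 for T cell, 0.64 for pan-leukocyte and 1.17 for macrophage markers. Over the 12 tumors the family level followed the log2 of the T cell sum with r = 0.955 (rho = 0.993), the pan-leukocyte sum with r = 0.812 (rho = 0.790) and the macrophage sum with r = 0.750 (rho = 0.853). Without the 2 farthest tumors these r were 0.931, 0.884 and 0.852. Values of the other leukocyte lists stand beside these. The median palbociclib effect was 0.70 for 4 NK cell markers (r = 0.697, rho = 0.650), 0.22 for the 3 of 4 dendritic cell markers tested (r = 0.690, rho = 0.783), -0.16 for the 1 of 3 B cell markers tested (r = -0.102, rho = 0.0839) and -1.69 for 4 neutrophil markers (r = -0.656, rho = -0.755), and none of them was called. In bulk tumors more cells of a type and more RNA per cell cannot be told apart, and the part of leukocyte content in the IRG levels was not tested.

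**Figure D4:**
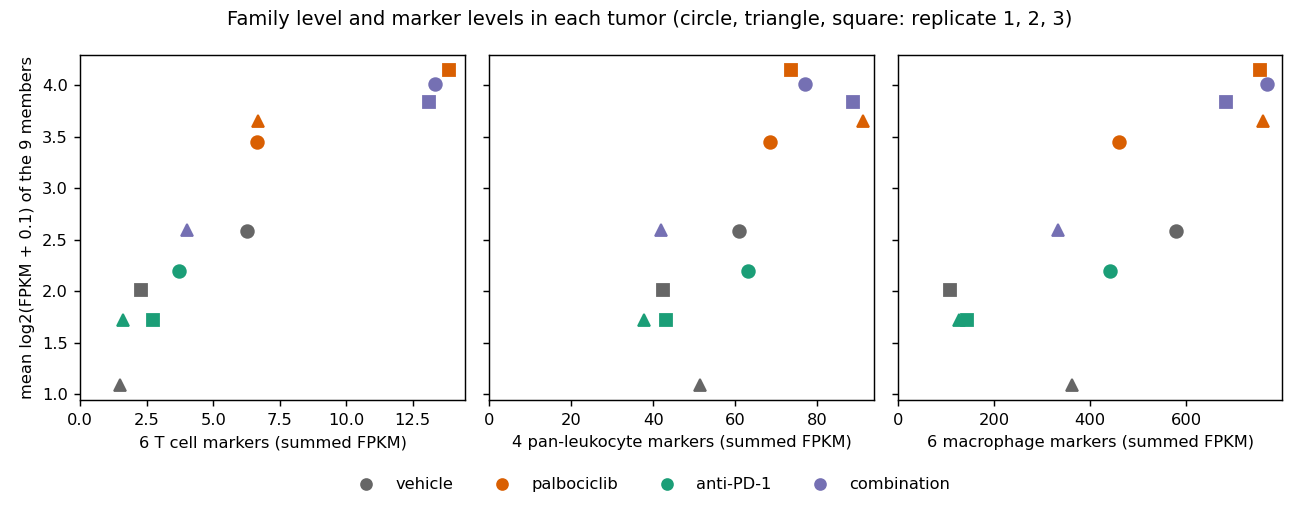
Mean log2(FPKM + 0.1) of the 9 members (y axis) against the summed FPKM of T cell, pan-leukocyte and macrophage markers (x axes, linear) in each of the 12 tumors, colored by arm and shaped by replicate. The family level follows the T cell sum most closely, and on each x axis combination replicate 2 (triangle) lies within the range of the 6 tumors without palbociclib.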

How the data were processed

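RNA of 12 tumors (4 arms of 3) was sequenced on Illumina instruments. The authors deposited FPKM values, 1 table of 34745 entries per tumor, of which 67 are repeats of a symbol (the entry with the highest mean was used). The submitters' processing notes name HISAT2, GRCm38 and mm10. The counting tool, versions and annotation are not given in the sources used here. Libraries held an estimated 14900000 to 20300000 fragments. With no counts at hand, log2(FPKM + 0.1) was fitted by limma (3.58.1, R 4.3.3; eBayes with trend) to 15350 genes whose mean FPKM reached 0.1, which all 9 members did. The fit was also run on simulated data in which every gene varied independently. The members here varied together, so that run cannot speak to calls that turn on single tumors. Members and gene lists were chosen with earlier results of these data known. Named genes are the members, list genes called in any comparison, preset pathway, comparator and tissue genes, and the 5 genes most alike in pattern, and Irgq was named after its value was seen. The result of 1 gene of the interferon signalling list is not reported here. Python 3.11.15, Biopython 1.88 and matplotlib 3.10.9 served for sequences and figures. Alternatives were other pseudocounts (1, 0.01), other filters (mean FPKM of 1, any FPKM above 0), TPM, quantile normalization, eBayes without trend, a replicate block, the compared arms alone, and leaving out each tumor, or combination replicate 2 with palbociclib replicate 2.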

Additional observations from a re-analysis of the deposited data

How the results depend on the processing

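The direction of the palbociclib effect, of palbociclib against vehicle, of combination against vehicle and of combination against anti-PD-1 was the same for all 9 members under every alternative run. The number of members called in the palbociclib effect, 4, was not stable: it was 1 with any FPKM above 0 admitted, 0 without the trend in eBayes, 9 with a replicate block, 8 without combination replicate 2 and palbociclib replicate 2, and between 0 and 9 when 1 tumor was left out at a time. Without the trend 3035 of 15350 genes had an unadjusted p under 0.05 in limma. For palbociclib against vehicle, where no member was called, the replicate block called 3 and leaving out 1 tumor 0 to 3 (3 without combination replicate 2). No source ties equal replicate numbers to a shared batch, and 7 of 18 same-numbered pairs of tumors had deviations from their arm means correlated above 0.1 (r from -0.213 to 0.453), so the block's calls rest on no known pairing. Over all genes the palbociclib effect called 48, and 0 to 758 with 1 tumor left out, 11 with any FPKM above 0, 129 with the block and 0 without the trend. Calls of genes outside the family were not stable either. In the palbociclib effect F830016B08Rik lost its call in 7 of 21 alternatives and Gm12185 in 13 of 20. Gbp2 lost it in 13 of 21, Gbp3 in 9 of 21, Gbp9 in 11 of 21 and Ifit2 in 10 of 21. For palbociclib against vehicle Gbp3 lost it in 12 of 22, Ifit2 in 12 of 22 and Oasl2 in 11 of 22. The median palbociclib effect of the members lay between 1.43 and 1.94 over all alternatives. For anti-PD-1 against vehicle the median ran from -0.36 to 0.38 and for combination against palbociclib from -0.56 to 0.29, so neither has a settled sign. The cause of these changes was not tested. FPKM without counts leave the counting error of low members such as Gm4841 out of the fit.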
